A study of Arabidopsis thaliana with 5 samples.

Results

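The auxin response factor (ARF) genes described here are 10 loci of Arabidopsis thaliana: ARF5 (AT1G19850), ARF6 (AT1G30330), ARF7 (AT5G20730), ARF8 (AT5G37020) and ARF19 (AT1G19220), which encode activators, and ARF2 (AT5G62000), ARF3 (AT2G33860), ARF4 (AT5G60450), ARF10 (AT2G28350) and ARF16 (AT4G30080), which encode repressors. They were listed by locus, without a rule on measured values but with earlier results of these data known, and make up 10 of 27444 nuclear protein-coding genes. All were found in the gene table, where ARF5 carries the symbol MP (MONOPTEROS), ARF3 the symbol ETT (ETTIN) and ARF7 the symbol NPH4. An overlap of 1 bp between a peak and the gene span was enough to assign the peak to the gene. R-loops, in which RNA pairs with one DNA strand and displaces the other, were mapped in wild-type Columbia seedlings at the age of 12 days. The assay was DNA:RNA immunoprecipitation (DRIP), in which the S9.6 antibody pulls hybrid-containing fragments out of genomic DNA. The series holds 2 DRIP samples, 2 DRIP samples whose DNA was first incubated with RNase H, an enzyme that removes RNA from hybrids, and 1 input, all from wild-type whole seedlings. Peak lists of the DRIP samples were analysed, and the RNase H and input samples were not analysed here, so no value from RNase H-treated DNA is set beside the peaks below.

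ARF proteins bind auxin response elements in promoters and switch auxin-responsive genes on or off. At low auxin, Aux/IAA proteins sit on the ARFs and hold target genes silent, and auxin makes the TIR1/AFB receptors mark the Aux/IAA proteins for degradation. Several ARF transcripts are themselves cut under the guidance of small RNAs: those of ARF6 and ARF8 by miR167, those of ARF10 and ARF16 by miR160, and those of ARF2, ARF3 and ARF4 by tasiRNAs made from TAS3 transcripts.

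There were 4 peak lists: DRIP replicate 1 (47291 peaks), DRIP replicate 2 (39888 peaks), and one list for each strand, named w (34493 peaks) and c (34069 peaks), both recorded under DRIP replicate 1. The depth of the libraries is unknown, because the lists give no read numbers. The labels do not say whether the replicates are separate growths of seedlings, and their spread may be technical only. The fold of a peak is the authors' own value, the height at the peak summit over the local background, and it is used here to describe and rank peaks within a list. Gene strand was not used, so positions run from the gene end with the lower coordinate, and w and c are names of opposite strands only. Peak coordinates are those of TAIR10.

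DRIP peaks were present in both replicates at 9 of the 10 ARF genes, and in neither replicate at ARF5. The background was 60.6% of all protein-coding genes and 74.9% of the 5627 protein-coding genes as long as the ARF genes, between 3069 and 5735 bp. No test was made of this count, since 10 genes are not replicates of a condition. A w peak lay in 8 ARF genes (background 54.9%, and 70% in the length range) and a c peak in 8 (54.8%, and 69.9% in the length range). Both a w and a c peak lay in 6 of the 10, against 47.9% of genes in the length range and 30.7% of all protein-coding genes. ARF5 and ARF7 carried w peaks alone (background 24.2%, and 22.1% in the length range), and ARF8 and ARF16 carried c peaks alone (24.1%, and 21.9% in the length range). All 10 held a peak in at least 1 of the 4 lists, near the 92.1% of genes in the length range (79.3% of all protein-coding genes). Of the 87 peaks that touched an ARF gene over the 4 lists, none overlapped a second annotated gene, although ARF7 shares 254 bp with CPN20 (AT5G20720), ARF5 shares 23 bp with AT1G19860 and ARF19 shares 6 bp with AT1G19210.

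The ARF genes differed in how much of each gene lay under DRIP peaks. DRIP peaks covered 20.5% ± 0.32 of the 45958 bases of the 10 genes (SD, n = 2), with 20.7% in replicate 1 and 20.3% in replicate 2. Genes of the same length range were covered over 13.7% ± 0.99 of their bases. The 5 repressor genes were covered over 32.5% ± 1.54 of their bases and the 5 activator genes over 11.4% ± 0.62 (SD, n = 2 replicates). By gene, the repressors lay between 22.8% and 59.4%, with a median of 27.1%, and the activators between 0% and 27.4%, with a median of 10.7%. The repressor genes are 3069 to 5205 bp long and the activator genes 4736 to 5735 bp. The coverage ranges met at ARF19, an activator gene covered more than ARF4, ARF3 and ARF16. The replicates share the same genes, so their SD says nothing of the spread between genes, and the difference between activators and repressors was not tested. It describes these 10 genes only. The 13 further ARF genes counted below were placed in neither group, and their coverage ran from 0% to 55.5%, with a median of 17.5%.

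**Figure D1:**
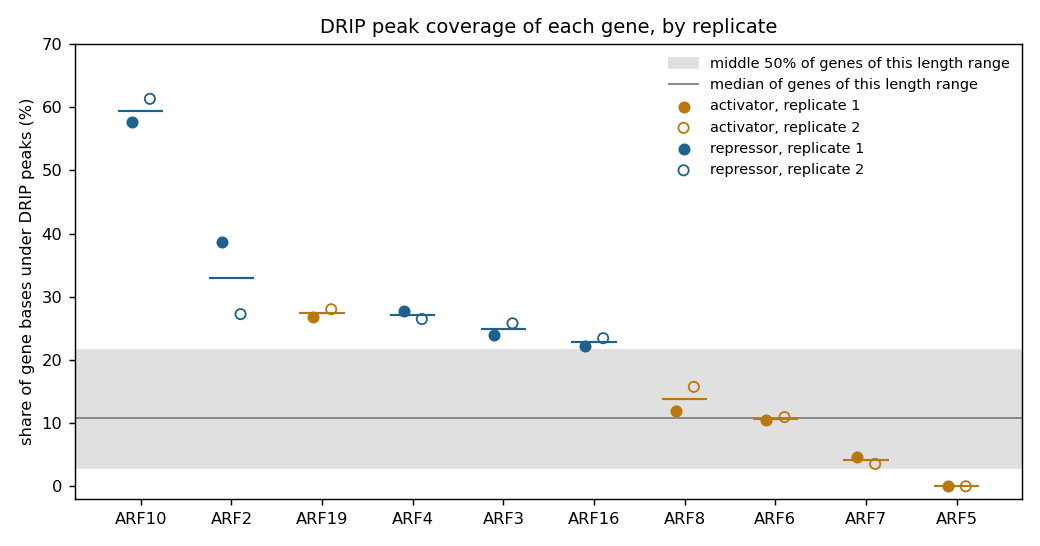
Share of gene bases under DRIP peaks (percent) for each ARF gene, in order of the mean of the replicates (short lines). Filled and open points are replicates 1 and 2. The grey band spans the middle 50% of protein-coding genes in the same length range, from 2.94% to 21.6%, with their median at 10.8%. ARF10 stands highest at 57.6% and 61.3%, and the 5 repressors and ARF19 lie above the band.

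ARF10, one of the miR160-targeted repressor genes, was the most covered. DRIP peaks lay over 57.6% of it in replicate 1 and 61.3% in replicate 2. Its coverage exceeded that of 99.6% of genes in the length range, and its replicates did not overlap with those of the next gene, ARF2. ARF2 had 38.7% in replicate 1 and 27.2% in replicate 2, the widest gap between replicates among these genes, so its place above ARF19 and ARF4 was within the replicate spread. ARF19 had 26.7% and 28.0% in replicates 1 and 2, and ARF4 had 27.7% and 26.5%, and their ranges met as well. From ARF4 down, each gene's lower replicate lay above the higher replicate of the next. ARF3 had 24.0% and 25.8% in replicates 1 and 2, ARF16 had 22.2% and 23.4%, and ARF8 had 11.9% and 15.7%. ARF6 had 10.5% and 11.0%, ARF7 had 4.64% and 3.54%, and ARF5 had 0% in both. Thus ARF6 lay near the median gene of its length range, ARF7 and ARF5 below it, and the others above it.

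Among the activators, ARF5, which acts in embryo patterning and vein formation, had a single short peak of 111 bp in the w list. This peak lay on chromosome 1 from 6891242 to 6891352, near the upper end of the gene, with a fold of 3.09, lower than the median fold of 3.88 of all w peaks. No DRIP peak and no c peak touched the gene. Genes without a DRIP peak in the 2 replicates made up 16.7% of the length range and 31.2% of all protein-coding genes.

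ARF6 and ARF8, close relatives that act together in flower maturation, both carried DRIP peaks, with mostly w peaks in ARF6 and only c peaks in ARF8. These strands were not set against the orientation of either gene. In ARF6 the main DRIP peak spanned 10686613 to 10686856 on chromosome 1 in replicate 1 (fold 3.99), and 10686628 to 10686974 in replicate 2 (fold 3.84). A second DRIP peak, higher along the gene, had folds of 2.63 and 2.74. A single w peak of 971 bp (fold 6.32) ran under both of these, while the 1 c peak of ARF6, of 113 bp, lay at the other end of the gene with a fold of 3.26. ARF8 had 5 c peaks and no w peak. The c peak at its lower end had a fold of 3.81 and its summit outside the gene, with 119 of its 390 bp inside. The replicate 1 DRIP peak there (fold 2.71) also had its summit outside the gene. Its DRIP peak at 14630003 to 14630167 on chromosome 5 had a fold of 3.67 in replicate 1, and the replicate 2 peak there, at 14629720 to 14630168, had a fold of 2.56. A further DRIP peak in the upper part of ARF8 had folds of 2.87 in replicate 1 and 3.29 in replicate 2. The highest peak of ARF8 was therefore a different one in each replicate.

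ARF7 and ARF19, the pair that acts in lateral root formation and in tropic growth, differed in coverage. ARF7 held 1 DRIP peak found in both replicates, at 7017886 to 7018051 on chromosome 5 in replicate 1 (fold 2.79) and with a fold of 2.74 in replicate 2. ARF19 held a DRIP peak of 1208 bp in replicate 1 (chromosome 1, 6629516 to 6630723, fold 4.74) and of 1264 bp in replicate 2 (6629373 to 6630636, fold 4.11). Peaks of 1 kb or more made up only 3.1% of the replicate 1 list and 3.06% of the replicate 2 list. A w peak of 1343 bp with a fold of 7.15 lay under the ARF19 peak, and a c peak of 235 bp with a fold of 3.26 met its upper end. In ARF7 both strand peaks were on w, with folds of 5.16 and 3.68.

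**Figure D2:**
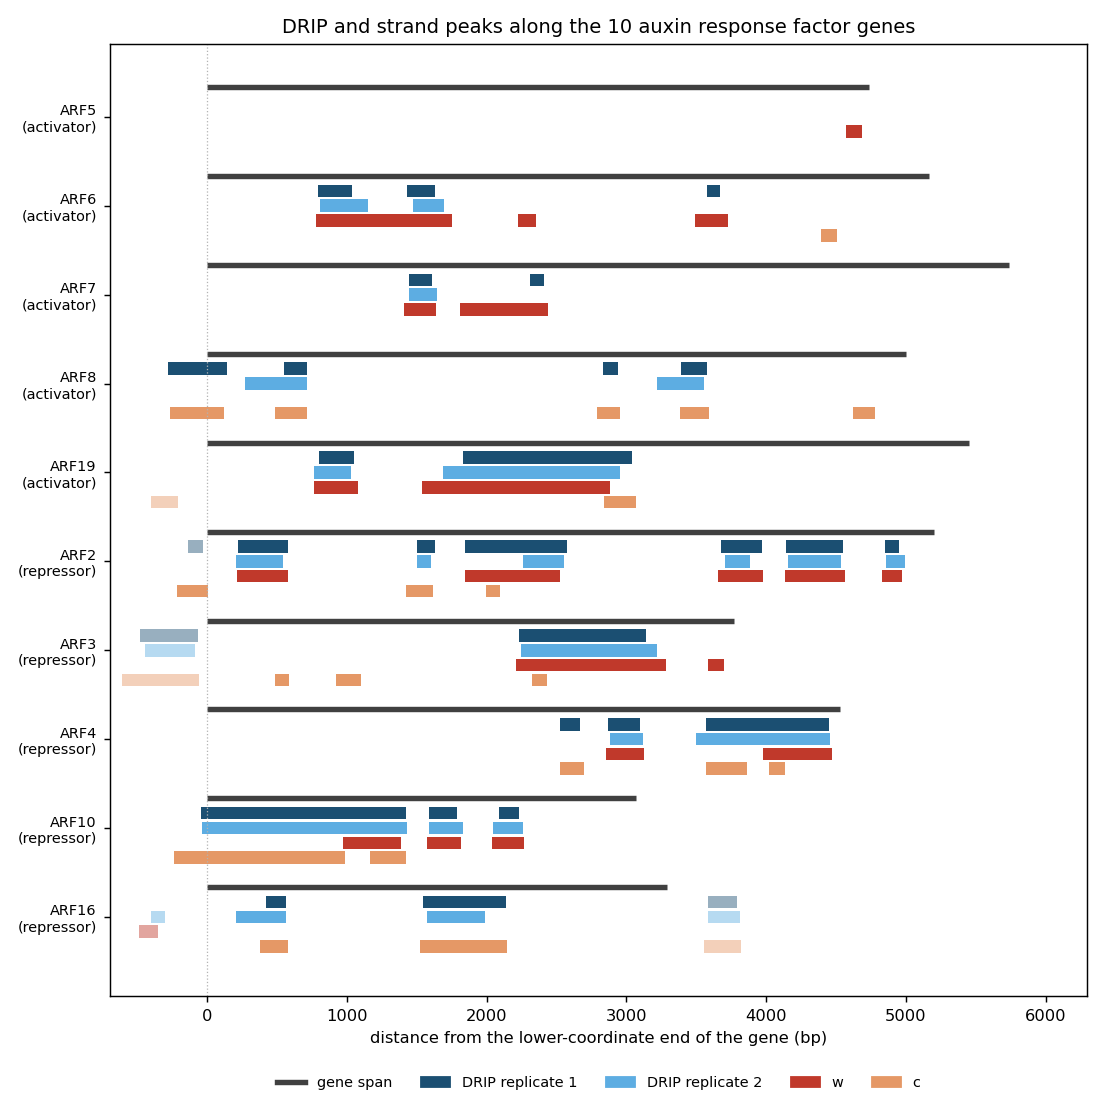
Peaks of the 4 lists along each ARF gene. The horizontal axis is the distance in bp from the lower-coordinate gene end, the dark line is the gene span, and pale bars are peaks within 500 bp that do not touch the gene. Of 26 replicate 1 peaks, 21 are matched in replicate 2, the lower part of ARF4 is empty, and ARF8 and ARF16 hold c peaks with no w peak.

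Among the repressors, ARF2, which restrains cell division and organ growth and promotes leaf senescence, had the most DRIP peaks, with 6 in each replicate, and each of those of replicate 1 was found again in replicate 2. ARF2 and ARF10 were the 2 genes with 3 or more DRIP peaks in both replicates, a share close to the 18.6% of genes in the length range and above the 8.29% of all protein-coding genes. The strongest ARF2 peak spanned 24910407 to 24910767 on chromosome 5 in replicate 1 (fold 3.99), with a fold of 3.81 in replicate 2. The next, at 24914336 to 24914740 in replicate 1, had folds of 3.55 and 3.59. Of the 6 peaks of replicate 1, the 1 at 24911689 to 24911822 met a c peak (fold 3.85) and no w peak. The other ARF2 peaks met w peaks, with w folds from 2.27 to 4.68, and the widest of them, of 728 bp, also met a c peak of 100 bp. A c peak with a fold of 4.74 touched only the first 2 bp of the gene, and its summit lay outside it.

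ARF3 and ARF4 act together in giving leaves their lower side, and ARF3 also patterns the gynoecium. Each carried a broad DRIP peak in its upper part. That of ARF3 spanned 14327438 to 14328343 on chromosome 2 in replicate 1 (906 bp, fold 3.99) and 14327451 to 14328423 in replicate 2 (973 bp, fold 4.04). That of ARF4 spanned 24311822 to 24312703 on chromosome 5 in replicate 1 (882 bp, fold 4.55) and 24311754 to 24312712 in replicate 2 (959 bp, fold 4.39). ARF4 also held a narrower DRIP peak at 24311122 to 24311352 in replicate 1, with a fold of 4.87, the highest among the DRIP peaks in ARF genes, and a replicate 2 peak there with a fold of 3.75. All peaks in ARF4, in all 4 lists, lay in its upper part: the gene is 4530 bp long, and the first peak of any list began 2521 bp from the lower end. The w peak under the narrow ARF4 peak had a fold of 8.40, higher than 97.2% of all w peaks. Under the broad ARF4 peak the strands split, with a c peak of 298 bp (fold 6.81) in its lower part and a w peak of 492 bp (fold 5.30) in its upper part. A c peak of 111 bp overlapped that w peak.

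ARF10 and ARF16 share the control by miR160 and act in root cap and seed development. In ARF10 a DRIP peak of 1469 bp in replicate 1 (chromosome 2, 12113843 to 12115311, fold 4.15) and of 1471 bp in replicate 2 (12113848 to 12115318, fold 4.30) began just outside the lower gene end. Both were wider than 99.4% of the peaks of their list. A c peak of 1226 bp with a fold of 7.11 lay under the lower part of it, and a c peak of 258 bp with a fold of 5.16 lay under its upper end. A w peak of 416 bp with a fold of 3.54 also lay inside the wide DRIP peak and overlapped both c peaks, and w peaks with folds of 6.04 and 3.24 stood higher along the gene. ARF16 had c peaks only. Its main DRIP peak spanned 14704610 to 14705200 on chromosome 4 in replicate 1 (fold 3.59), with a fold of 3.47 in replicate 2, and the c peak under it had a fold of 6.04. A weaker peak nearer the lower end had folds of 2.15 in replicate 1 and 2.74 in replicate 2.

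By the highest DRIP peak fold of each gene, the order was ARF4 (4.63 ± 0.34, SD, n = 2), ARF19 (4.43 ± 0.44), ARF10 (4.22 ± 0.11), ARF3 (4.01 ± 0.036), ARF6 (3.91 ± 0.10), ARF2 (3.90 ± 0.13), ARF16 (3.53 ± 0.081), ARF8 (3.48 ± 0.27) and ARF7 (2.77 ± 0.034). The replicate ranges of neighbours in this order were apart only between ARF10 and ARF3, between ARF2 and ARF16, and between ARF8 and ARF7. Over the genes with a peak, the median highest fold was 3.99 for ARF genes and 3.79 for genes in the length range in replicate 1, and 3.84 and 3.75 in replicate 2. ARF4, the highest, exceeded 84.0% of such genes in replicate 1 and 71.8% in replicate 2, while ARF7 exceeded 15.1% and 15.4%. Peak folds of the ARF genes therefore lay inside the range of genes of their length, and the gene with the most covered bases, ARF10, was not the one with the highest fold.

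**Figure D3:**
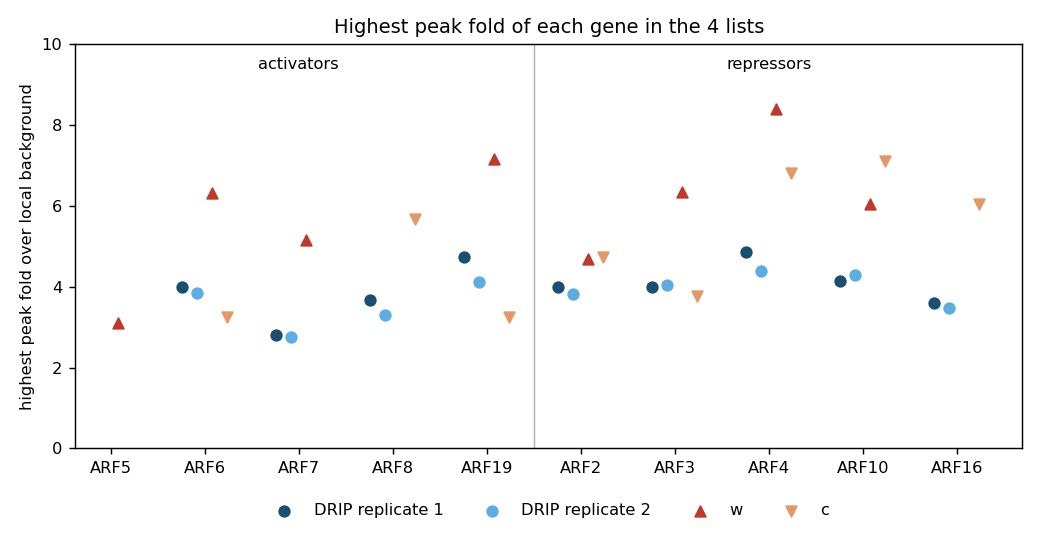
Highest peak fold over the local background of each ARF gene in the 4 lists, linear scale. A missing point means that no peak of that list touched the gene. The c point of ARF2 (4.74) is of a peak that touches 2 bp of the gene with its summit outside, and the next c peak of ARF2 has a fold of 3.85. DRIP folds run from 2.74 to 4.87 and ARF5 has none. The strand lists reach 8.40 at ARF4 (w) and 7.11 at ARF10 (c), and whether folds share a scale across lists is unknown.

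The strand peaks of the ARF genes lay more on w than on c. Peaks of w covered 19.0% of the bases of the 10 genes and peaks of c 9.93%, against 10.9% and 10.8% in the length range. This is 1 list for each strand with no replicate. Gene strand was not used, so whether the balance follows the orientation of the genes was not tested. The largest w coverage was 37.3% of ARF2, and the largest c coverage 40.6% of ARF10. In 8 of the 10 genes the main strand held 75.2% or more of the bases under strand peaks: w in ARF5, ARF6, ARF7, ARF19, ARF2 and ARF3, and c in ARF8 and ARF16. The others were mixed, since w peaks held 56.9% of these bases in ARF4 and 41.6% in ARF10. The median share on the main strand was 89.9% over the ARF genes and 92.0% over the 5176 genes of the length range with a strand peak.

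**Figure D4:**
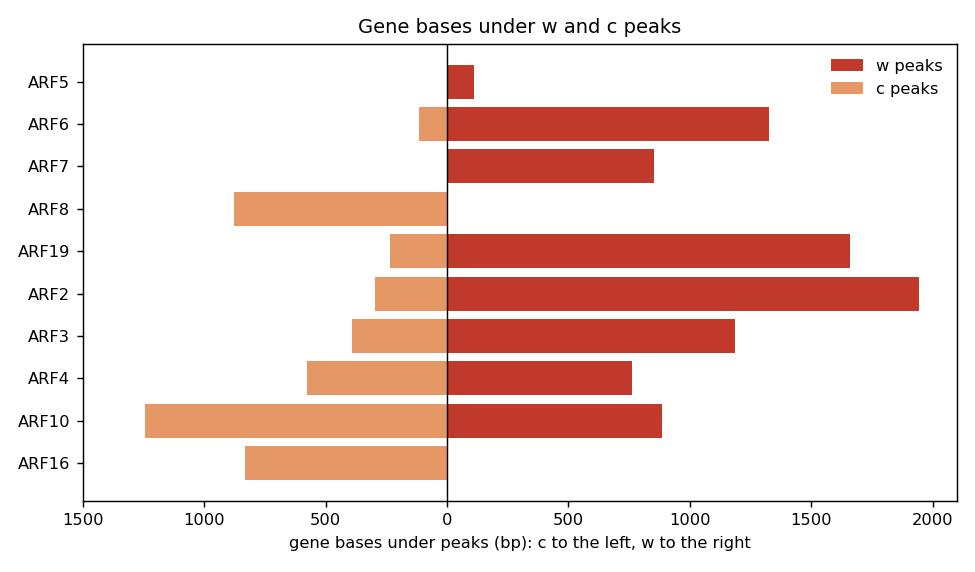
Gene bases (bp) under w peaks, drawn to the right, and under c peaks, drawn to the left, for each ARF gene, activators above repressors. ARF2 has 1943 bp under w and 296 bp under c, ARF10 has 886 bp under w and 1245 bp under c, and ARF8 and ARF16 have none under w.

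In some ARF genes, w and c peaks overlapped. Of the 20 w peaks in ARF genes, 5 overlapped a c peak, against 11.2% of all w peaks, and the bases shared came to 604 bp. The overlapping c peaks of ARF2, ARF3 and ARF4 were short (100, 109 and 111 bp) and lay wholly inside w peaks. Those of ARF19 and ARF10 did so only in part. Of the 26 replicate 1 DRIP peaks in ARF genes, 13 met only w peaks, 8 met only c peaks, 5 met both and 0 met neither (background 44.9%, 44.3%, 9.78% and 1.03%). The peaks with both strands lay in ARF19, ARF2, ARF3, ARF4 and ARF10. Each was the widest replicate 1 peak of its gene, and in ARF3 the only one. Strand peaks without any DRIP peak were 3 of 20 on w and 4 of 20 on c, with folds from 2.92 to 3.78. Their shares over the whole lists were 25.7% on w and 25.4% on c. The w peak of ARF5 was one of them. Both strand lists are recorded under replicate 1, so their overlap with its peaks is no independent comparison.

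Most peaks were found in both replicates. All 21 replicate 2 peaks in ARF genes were matched in replicate 1 (background 95.1%), as were 21 of 26 replicate 1 peaks in replicate 2 (background 79.5%). The 5 others had folds from 2.23 to 2.71 and lay in ARF6, ARF7, ARF4 and, as a pair, ARF8. Replicate 1 peaks found again had a median fold of 3.55, with a range from 1.90 to 4.87, so low folds occurred on both sides. Of the bases covered in either replicate, 72.3% were covered in both, against 70.4% in the length range. By gene this share ran from 32.1% in ARF8 to 93.9% in ARF10.

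Along the gene, DRIP coverage of the ARF genes was compared with that of genes of their length. With each gene cut into 3 equal parts from the lower-coordinate end, replicate 1 peaks covered 18.4%, 25.5% and 18.3% of the bases of the ARF genes, against 16.4%, 11.2% and 15.6% in the length range. In replicate 2 the shares were 22.3%, 19.7% and 18.8% for the ARF genes, against 14.9%, 9.98% and 14.1%. The order of the parts thus differed between replicates for the ARF genes, and each of the 3 parts was above that of the length range in both replicates. The widest replicate 1 peaks of ARF19 and ARF2 lay in the middle part. For w the shares were 14.9%, 22.8% and 19.2%, against 8.72%, 9.03% and 15.0% in the length range, and for c they were 13.2%, 10.8% and 5.77%, against 15.4%, 8.72% and 8.26%. These are sums over 10 genes, with no test.

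Outside the gene spans, the strongest nearby peak stood beside ARF3. A c peak at 14324596 to 14325145 on chromosome 2 had a fold of 8.77, higher than 98.1% of c peaks, and ended 60 bp below the ARF3 span. It lay wholly in the neighbouring gene AT2G33855. DRIP peaks there had folds of 4.53 in replicate 1 and 4.44 in replicate 2, above those inside ARF3. ARF16 had a DRIP peak just above its upper end, at 14706652 to 14706858 on chromosome 4 in replicate 1, in no annotated gene, with folds of 2.71 and 2.93 and a c fold of 4.39. These peaks are not counted as carried by the ARF genes.

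The other genes of the ARF family and of the auxin response were counted in the same way, and the background of all protein-coding genes was again 60.6% for DRIP peaks in both replicates, 54.9% for w and 54.8% for c. Of 13 further ARF genes, 10 had DRIP peaks in both replicates, 8 a w peak and 9 a c peak. Their median length was 3218 bp, and some were shorter than any of the 10 ARF genes. In the length range of the 10 ARF genes the background was 74.9% for DRIP peaks in both replicates, 70% for w and 69.9% for c. The highest by the smaller replicate fold were ARF20 (5.66 in replicate 1 and 5.39 in replicate 2), ARF14 (4.47 and 5.58) and ARF15 (4.39 and 5.21). ARF1, ARF12 and ARF13 lacked DRIP peaks: ARF1 had a c peak (3.69), and ARF12 and ARF13 had no peak in any list. ARF12 to ARF15 and ARF20 to ARF22 are closely similar copies on chromosome 1, so reads may be split or misplaced among them, and their values are uncertain. ARF17, the remaining miR160-targeted gene, is named after its values were seen: it was covered over 21.2% of its bases, with folds of 2.84 and 2.68 and a c peak alone (3.91), as in ARF16.

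Of the 6 TIR1/AFB receptor genes, 5 carried DRIP peaks in both replicates, led by TIR1 (6.06 in replicate 1 and 6.40 in replicate 2), AFB5 (4.95 and 4.96) and AFB4 (4.15 and 4.39). AFB1 had no peak in any list. Of the 29 Aux/IAA genes, 23 carried DRIP peaks in both replicates, 2 in 1 replicate and 4 in neither. IAA20 (5.58 and 5.85), IAA7 (5.66 and 5.12) and IAA15 (5.02 and 5.21) ranked highest, and IAA3, IAA4 and IAA10 had strand peaks but no DRIP peak. IAA33, named after its values were seen, had no peak in any list. TIR1, AFB5, IAA20, IAA7 and IAA15 thus had higher DRIP folds than any of the 10 ARF genes in either replicate.

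Among 12 genes known as direct or early ARF targets, 11 carried DRIP peaks in both replicates. The highest were TMO5 (5.10 in replicate 1 and 5.76 in replicate 2), a vascular bHLH gene downstream of ARF5, GH3.5 (4.95 and 5.21), an auxin-conjugating enzyme gene, and LFY (4.87 and 4.75), a floral identity gene. LBD29, a lateral root gene downstream of ARF7 and ARF19, had a w peak (3.24) and no DRIP peak. Of 12 genes of small RNAs that act on ARF transcripts or on TAS3, 3 carried DRIP peaks in both replicates: 1 of 9 miRNA genes, against 12.3% of all miRNA genes, and 2 of the 3 TAS3 genes. No background is given for the TAS3 genes. TAS3C was highest (4.79 and 5.30, with a c fold of 7.88), followed by MIR167C (2.71 and 2.56) and TAS3A (3.27 and 2.47, with a c fold of 6.07). The peaks of MIR167C covered only 11.25% of its 160 bp. MIR167A, named after its values were seen, had a DRIP peak in replicate 1 only (2.87) and a c peak (5.33). Its mean coverage over the replicates was 44.6%. MIR160A, MIR167D and MIR390A were among the 8 with no DRIP peak. Median coverage was 23.9% in the 10 ARF genes, 17.5% in the other ARF genes, 25.4% in the receptor genes, 18.6% in the Aux/IAA genes and 18.3% in the target genes.

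**Figure D5:**
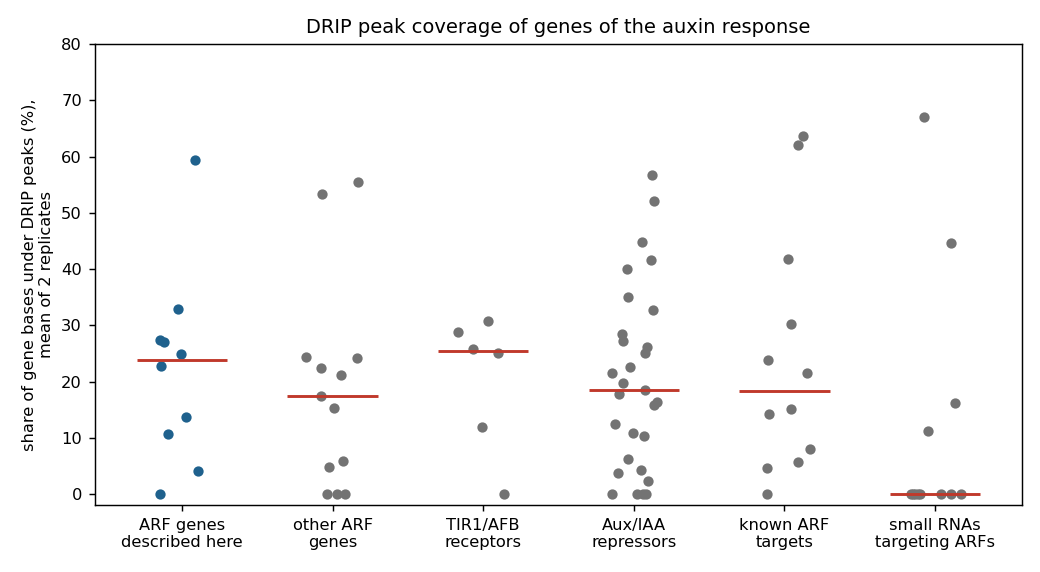
Share of gene bases under DRIP peaks (percent, mean of 2 replicates) for each gene, by group, with the group median as a red line. The 10 ARF genes, at 0% to 59.4%, overlap every other group, and the median of the small RNA genes is 0%.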

How the data were processed

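Per the submitters' processing notes, CASAVA, BWA 0.7.12 and MACS2 were used, with the TAIR10 build. Which library served as control, how MACS2 was set and whether replicates were pooled is not given in the sources used here. DNA was cut with restriction enzymes before precipitation, per the labels' protocols, so fragment ends also follow the cut sites. The deposited fold is a linear ratio of summit height to local background. The deposited -log10 p-value was not used, while the deposited -log10 q-value of the MACS2 calls served for a stricter setting, and every peak had a -log10 q-value of at least 1.30. The deposited score column was not used.

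Gene spans came from RefSeq's gene table for TAIR10.1, whose nuclear chromosomes are those of TAIR10. The join was checked by moving DRIP peaks up to 1000 bp to either side, 50 bp at a time, by chromosome and replicate: in all 10 parts the shift with most peak bases in protein-coding genes was 0 bp. The table gives no gene strand, exons or sequence, so the planned comparison of peak strand with gene orientation was not run, and no sequence is shown. Overlaps were computed with Python 3.11.15 and pandas 2.3.3. On simulated peaks, 200 of 200 planted genes among 27444 were found with the exact number of bases, and 0 others.

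Members, lists and the grouping into activators and repressors were chosen with earlier results of these data known. All 10 members are named. Further lists are named by their 3 top genes, ranked on the lower replicate's fold, and at most 3 genes lacking DRIP peaks, taken by lowest locus number. Counts, coverage and folds are descriptions with no test. Alternatives were another overlap rule, stricter peaks, 1 kb added to the gene and leaving out either replicate.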

Additional observations from a re-analysis of the deposited data

How the results depend on the processing

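The count of ARF genes with a DRIP peak in both replicates was 9 with summits required inside the gene (length range 72.6%). It was also 9 with at least 50 bp of overlap (74.4%), with a -log10 q-value of 5 or more (64.2%) and with 1 kb added on either side (85.2%). With either replicate left out it was 9 as well. With peaks at or above each list's median fold it was 8 (ARF7 was lost), against 54.7% of genes in the length range. The count with a c peak fell to 5, without ARF6, ARF19 and ARF3, against 51.5% of genes in the length range. ARF2 stayed among the 5 only through the c peak that touched 2 bp of the gene. The count with a w peak lay between 7 and 9 over these settings. The length-range share with a w peak ran from 52.2% with peaks at or above the median fold to 81.3% with 1 kb added. The share of ARF gene bases under DRIP peaks moved to 15.5% with peaks at or above the median fold (length range 9.61%), 18.0% with the stricter q-value (11.8%) and 16.2% with 1 kb added (12.6%), and lay between 20.3% and 20.7% with either replicate left out. The highest folds of the 9 genes were the same with summits required inside the gene. Leaving out 1 of 2 replicates cannot move a mean by more than their SD, so it says nothing of the stability of folds or coverage. No paired analysis was possible because only DRIP samples have peak lists here. The peak lists do not give depth, so a missing peak, as at ARF5, does not show that R-loops are absent.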
